A study of Homo sapiens with 10 samples.

Results

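Methylated DNA peaks were described at 7 genes of the Hedgehog pathway, namely the transcription factor genes GLI1, GLI2 and GLI3, the receptor gene PTCH1, the signal transducer gene SMO, the inhibitor gene SUFU and the decoy receptor gene HHIP. A member peak was any peak overlapping the gene body or the 2 kb on either side of it. This gave 116 of the 284960 peaks in 5 lists. By list there were 31 of 87815 peaks in EV, 23 of 53919 in K-KD, 27 of 59098 in K rep KO, 25 of 53396 in K non-rep KO, against 10 of 30732 in WT. The 7 genes were chosen by the peak numbers of these lists as well as by their pathway, GLI2 for its difference between K rep KO and WT. The numbers are therefore a description and carry no test.

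All samples were HEK293T cells, a human embryonic kidney line, profiled by methylated DNA immunoprecipitation and sequencing (MeDIP-seq), in which an antibody against 5-methylcytosine captures sonicated genomic DNA. Each of the 5 conditions had 1 immunoprecipitated library, 1 input library and 1 peak list, so no value below has a replicate. EV and WT were taken as unperturbed, K-KD is a knockdown that the series names for KCNQ1OT1_K, and the conditions called K rep KO and, separately, K non-rep KO are knockouts. KCNQ1OT1 is a long non-coding RNA of an imprinted domain. What EV, K, rep and non-rep stand for is not in the labels, nor is whether a knockout line is 1 clone. The lists hold no RNA, so neither the cell line nor the perturbations could be checked on expressed genes. The lists differed in length before any gene was considered, and peaks over all protein-coding genes came to 4.19 per 100 kb in EV, 2.46 in K-KD, 2.63 in K rep KO, 2.38 in K non-rep KO, against 1.10 in WT. The WT peaks were wider, with a median of 748 bp against 505 to 522 bp in the other lists.

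In the Hedgehog pathway a secreted ligand binds the receptor PTCH1, which otherwise holds back SMO, a membrane protein that acts in the primary cilium. Active SMO relieves the block that SUFU places on the GLI proteins, zinc finger factors that enter the nucleus and switch target genes on or off. GLI2 is chiefly an activator, GLI3 is largely processed to a repressor, and GLI1 is itself a target gene, as are PTCH1 and HHIP. DNA methylation of a CpG-rich promoter usually goes with silencing, whereas methylation inside the body of a gene is common in active genes.

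**Figure D1:**
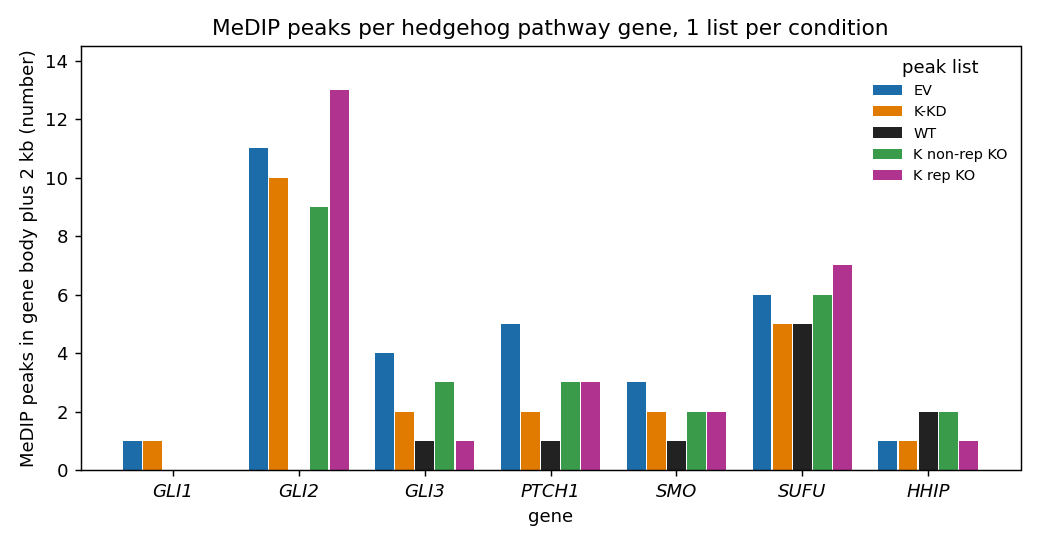
Number of MeDIP peaks (vertical axis) in the gene body plus 2 kb of each of the 7 genes (horizontal axis), with 1 bar per peak list and no replicate. GLI2 has 9 to 13 peaks in 4 lists and 0 in WT, while SUFU has 5 to 7 peaks in every list.

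GLI2 (chromosome 2, 120735868 to 120992653) held the most member peaks, 43 over the 5 lists. There were 11 in EV, 10 in K-KD, 13 in K rep KO, 9 in K non-rep KO, against 0 in WT. The WT list was the low one and the other 4 lay close together. Of all 19974 protein-coding genes, 10.5% had 0 peaks in WT and at least 1 in each other list. A 0 in WT was found for 7.57% of genes with at least 20 peaks over the 5 lists. It was found for 1.81% of genes with at least as many peaks as GLI2. GLI2 was chosen by its difference from WT, so no fold is given against WT and its place among these genes is no finding. Numbers of peaks also depend on list length. Per 100 kb GLI2 stood at 4.22 in EV and 3.83 in K-KD, beside 4.19 and 2.46 over protein-coding genes. For K rep KO it stood at 4.98 beside 2.63, and for K non-rep KO at 3.45 beside 2.38, against 0 in WT beside 1.10. Peaks were also few in WT beside the gene. The 500 kb below the GLI2 region carried 40 peaks in EV, 16 in K-KD, 16 in K rep KO, 10 in K non-rep KO, against 6 in WT, and the 500 kb above it held 17, 12, 11, 8 and 1 in the same order.

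The GLI2 peaks were close to the lists in fold enrichment. Their fold enrichment, the authors' ratio of the pileup at the summit to the caller's background, had a median of 4.61 in EV (2.76 to 5.61), 4.37 in K-KD (3.53 to 5.56), 3.96 in K non-rep KO (3.31 to 5.79) and 4.25 in K rep KO (2.59 to 6.79). The medians over all peaks of these lists were 4.30, 4.18, 4.44 and 4.39. The summit pileup, worked out from the authors' fold enrichment and p-value as a whole number of fragments, ran from 6 to 21 with a median of 10. The smallest pileup of any WT peak was 6 and the 5th percentile of the WT list was 7. Below 7 lay 2 of the 43 GLI2 peaks. They were 2 of the 9 in K non-rep KO (22.2%), where 7.29% of all peaks lay below 7. In EV, K-KD and K rep KO no GLI2 peak did, beside 0.822%, 0.966% and 1.29% of all their peaks. The commonest background was 1.29 fragments in WT, beside 1.02 in K non-rep KO, 1.24 in K rep KO, 1.34 in K-KD and 1.43 in EV. The part that depth has in the empty WT row was not tested.

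Of the 43 GLI2 peaks, 21 had no overlapping peak in another list and the rest recurred. Overlapping peaks merged into 29 regions, of which 21 (72.4%) had a peak in 1 list, 5 in 2 lists, 1 in 3 lists and 2 in 4 lists. Over the whole series 56.5% of 144156 regions had a peak in 1 list and 7.97% in all 5, which GLI2 could not reach with no peak in WT. Of the 13 GLI2 peaks of K rep KO, 5 overlapped a peak in EV, where 58.9% of all K rep KO peaks did. In the other direction 5 of 11 GLI2 peaks of EV overlapped a peak in K rep KO, beside 39.4% of all EV peaks. For K-KD 3 of 10 GLI2 peaks overlapped a peak in EV, where 58.3% of all K-KD peaks did. In K non-rep KO 3 of 9 overlapped a peak in K rep KO, beside 48.8% of all its peaks. The shares over the whole series include regions and peaks shared with WT. GLI2, chosen for its difference from WT, has none of these, so the shares are not a like comparison.

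The GLI2 regions found in 4 lists lay near the ends of the gene. One began 17.2 kb from the first base of the gene, at 120753063 to 120755042. Its fold enrichment was 5.16 in EV, 4.64 in K-KD, 5.79 in K non-rep KO, and 6.44 and 5.22 in a pair of peaks of K rep KO. The other began 254 kb into the gene, at 120989886 to 120990603, with 4.45 in K non-rep KO, 2.83 in K rep KO, 5.39 in K-KD and 5.02 in EV. A region 6.19 kb into the gene, at 120742058 to 120742755, had a fold enrichment of 3.99 in EV, 5.13 in K-KD and 6.79 in K rep KO, which was the highest GLI2 peak of any list. The highest pileup of the gene, 21 fragments, belonged to a peak of EV alone at 120906545 to 120907112.

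**Figure D2:**
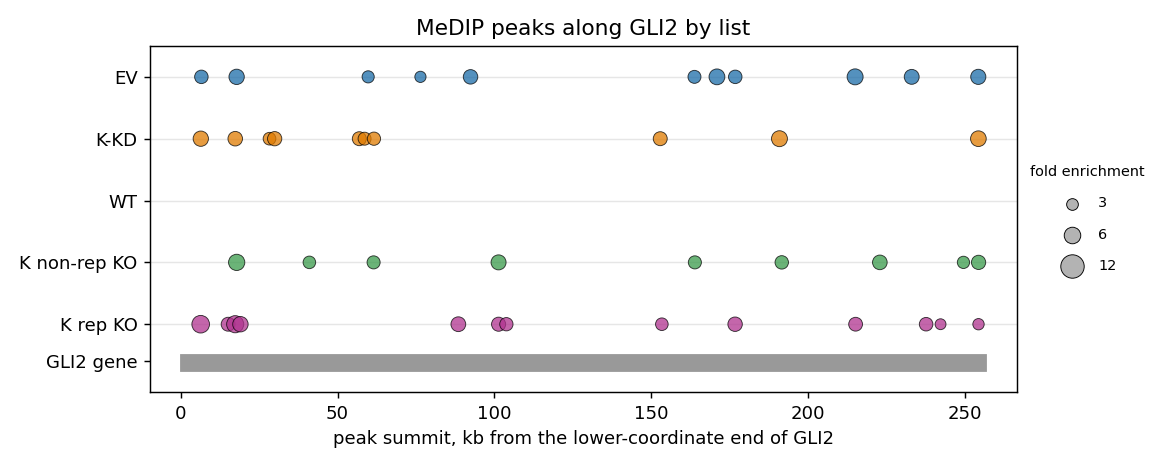
Summits of the MeDIP peaks along GLI2 in kb from the lower-coordinate end of the gene (horizontal axis), with 1 row per list, circle size giving the authors' fold enrichment and the grey bar the gene body. The WT row is empty, and the other 4 rows share positions near 17 kb and 254 kb.

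The start sites of the genes lay outside the peaks with 1 exception. RefSeq promoter windows of GRCh38.p14, 250 bases before to 50 after a start, were found for 5 of the 7 genes, 10 windows in all. The longest form of GLI2 starts in a window with 31 CpG dinucleotides, and the nearest peak was 6141 bp away in K rep KO and 6161 bp away in EV. An internal GLI2 start has a window with 7 CpG, and a K-KD peak at 120792186 to 120792848 covered part of it (fold enrichment 4.28, pileup 9). No other list had a peak there. The HHIP window holds 36 CpG, and a peak lay 315 bp before it in EV and 605 bp before it in K rep KO. PTCH1 has 5 windows with 13 to 27 CpG, none with a peak, and a peak of EV lay 33 bp from the window with 27. SMO (29 CpG) and SUFU (20 CpG) had no peak within 5 kb of their windows. Over all 34961 windows a peak was present for 4.63% in EV, 2.81% in K-KD, 2.77% in K rep KO, 2.16% in K non-rep KO, against 0.661% in WT.

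Over all windows a peak was more frequent where CpG were many. With 10 CpG or more 4.03% of windows had a peak in K-KD and 6.28% in EV, and with fewer 1.24% and 2.50%. The windows of GLI2 and HHIP are printed to show the one start under a peak beside the other start of the same gene and a start with a peak close by. They run 5′ to 3′ on the plus strand, and capitals mark CpG.
GLI2 upstream start, chr2:120735618-120735917: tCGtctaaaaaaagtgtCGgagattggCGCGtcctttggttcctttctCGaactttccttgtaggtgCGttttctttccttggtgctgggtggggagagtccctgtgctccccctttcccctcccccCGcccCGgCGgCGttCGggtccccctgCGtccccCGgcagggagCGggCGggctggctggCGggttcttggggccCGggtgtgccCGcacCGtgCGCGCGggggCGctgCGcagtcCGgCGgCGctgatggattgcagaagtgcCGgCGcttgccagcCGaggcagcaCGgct
GLI2 internal start, chr2:120792031-120792330: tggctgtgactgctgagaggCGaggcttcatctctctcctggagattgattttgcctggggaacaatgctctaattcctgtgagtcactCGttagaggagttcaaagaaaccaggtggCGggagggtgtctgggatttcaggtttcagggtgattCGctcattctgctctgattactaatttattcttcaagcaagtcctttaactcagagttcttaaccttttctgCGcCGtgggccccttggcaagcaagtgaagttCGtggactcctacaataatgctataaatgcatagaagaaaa
HHIP start, chr4:144645906-144646205: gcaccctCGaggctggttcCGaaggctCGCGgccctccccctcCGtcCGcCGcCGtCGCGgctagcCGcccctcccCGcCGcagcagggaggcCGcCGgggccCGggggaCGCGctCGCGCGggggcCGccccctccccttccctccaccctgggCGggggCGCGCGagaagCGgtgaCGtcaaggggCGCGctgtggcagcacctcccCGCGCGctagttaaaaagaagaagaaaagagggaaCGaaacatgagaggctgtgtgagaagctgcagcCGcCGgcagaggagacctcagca
A PTCH1 window is printed because it holds the letters GACCACCCA, the sequence that GLI proteins are known to bind, on the other strand (TGGGTGGTC, in capitals). Both strands were searched. The letters occur in 83 of the 34961 windows (0.237%) and in 1 of the 10 windows of these genes. The nearest peak was 7738 bp away in EV and 14660 bp away in K-KD. A match is a description of the letters and not of binding.
PTCH1 start, chr9:95509217-95509516, minus strand: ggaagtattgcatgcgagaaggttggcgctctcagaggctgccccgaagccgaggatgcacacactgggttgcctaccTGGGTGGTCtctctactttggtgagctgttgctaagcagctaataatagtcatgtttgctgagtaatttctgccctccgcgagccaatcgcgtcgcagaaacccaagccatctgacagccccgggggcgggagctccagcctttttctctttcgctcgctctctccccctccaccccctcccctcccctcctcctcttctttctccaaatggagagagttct

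GLI3 (chromosome 7, 41960949 to 42264268), the longest of the 7 genes, carried few peaks. There were 4 in EV, 2 in K-KD, 1 in K rep KO, 3 in K non-rep KO, against 1 in WT. Per 100 kb this was 1.30 in EV and 0.325 in both WT and K rep KO, below the level over protein-coding genes in each list. The 500 kb on either side were as sparse, with 1 and 4 peaks in EV and 1 and 1 in WT. Of its 9 regions 8 (88.9%) had a peak in 1 list, beside 56.5% of regions over the whole series. The remaining one, at 41964348 to 41965982, had a fold enrichment of 3.24 in EV, 3.39 in WT and 4.02 in K rep KO. GLI1 (chromosome 12, 57459785 to 57472268), which is short, had 1 peak in EV and 1 in K-KD and 0 in the other lists. They overlapped, with a fold enrichment of 2.74 in EV and 4.47 in K-KD and a pileup of 10 in both.

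SUFU (chromosome 10, 102502819 to 102633535), which binds GLI proteins and keeps them inactive, held 5 to 7 peaks in every list. There were 6 in EV, 5 in K-KD, 7 in K rep KO, 6 in K non-rep KO, against 5 in WT, in lists of unlike length. Per 100 kb its level in WT, 3.71, was above the 1.10 of protein-coding genes, and in EV it was 4.45 beside 4.19. The surrounding 500 kb windows were dense too, with 22 and 16 peaks in WT and 51 and 39 in EV. Of its 11 regions, 3 had a peak in all 5 lists, and these held 15 of the 29 SUFU peaks. Over the whole series 7.97% of regions had a peak in all 5 lists. All 5 WT peaks of SUFU overlapped a peak in EV, where 68.6% of all WT peaks did.

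The SUFU regions found in all 5 lists were each close to 2 kb wide. The first spanned 1994 bp at 102551755 to 102553748, with a fold enrichment of 5.98 in EV, 6.27 in K-KD, 5.77 in K rep KO, 4.70 in K non-rep KO, against 8.50 in WT. The second spanned 1940 bp at 102565521 to 102567460, with 6.07 in EV, 3.91 in K-KD, 5.19 in K rep KO, 9.40 in K non-rep KO, against 5.47 in WT. The third spanned 1944 bp at 102586440 to 102588383, with 11.4 in EV, 7.69 in K-KD, 6.94 in K rep KO, 4.18 in K non-rep KO, against 5.62 in WT. Which list was highest differed between the 3 regions, namely WT, K non-rep KO and EV. These are single summits, and fold enrichments of separate lists are set side by side as description only.

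A further SUFU region at 102541486 to 102542341 was found in all lists but K non-rep KO (fold enrichment 3.05 to 4.31), and one at 102534150 to 102535511 in EV (3.99), WT (5.60) and K rep KO (6.69). The 5 SUFU regions seen in 1 list had pileups of 7 to 10.

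SMO (chromosome 7, 129188633 to 129213545), the receptor-like protein that passes the signal inward, had 3 peaks in EV, 2 in K-KD, 2 in K rep KO, 2 in K non-rep KO, against 1 in WT. The single WT peak fell in a region of 1167 bp at 129195826 to 129196992 that had a peak in all 5 lists. It began 7.19 kb into the gene. Fold enrichment there was 7.77 in EV, 11.9 in K-KD, 13.1 in K rep KO, 8.59 in K non-rep KO, against 10.2 in WT. The K rep KO value was the highest of any member peak. The pileups were 36, 30, 29, 27 and 39 fragments in the same order, and the peak widths 1023 to 1123 bp. The other SMO peaks were lower, with a fold enrichment of 3.36 to 4.66, and lay in 3 regions found in 1 or 2 lists.

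**Figure D3:**
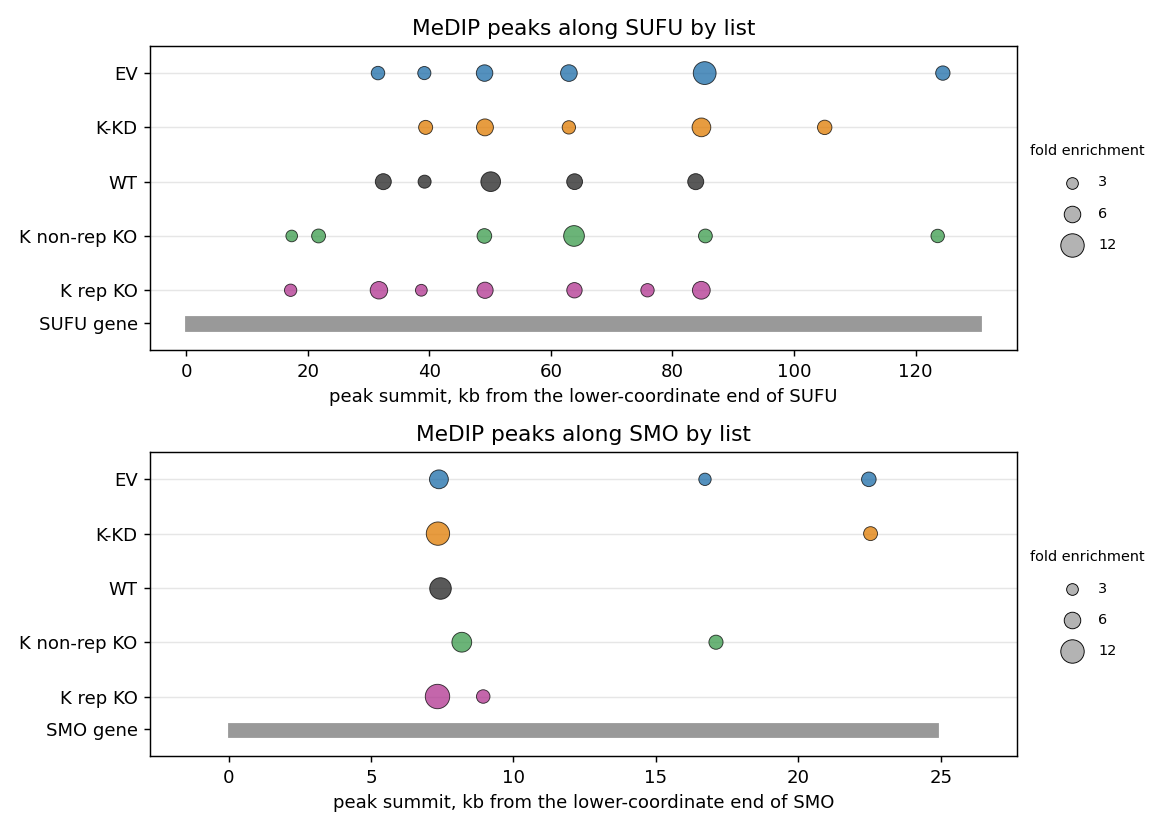
Summits of the MeDIP peaks along SUFU and SMO in kb from the lower-coordinate end of each gene (horizontal axes), with 1 row per list, circle size giving the authors' fold enrichment and the grey bars the gene bodies. Columns of circles in all 5 rows mark 3 SUFU regions and 1 SMO region, the WT row included.

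PTCH1 (chromosome 9, 95442980 to 95516971), the receptor that restrains SMO, had 5 peaks in EV, 2 in K-KD, 3 in K rep KO, 3 in K non-rep KO, against 1 in WT. Its gene runs on the minus strand, so its end lies at the lower coordinate. A region near that end, at 95446544 to 95448179, joined peaks of 4 lists with a fold enrichment of 3.40 in WT, 3.93 in EV, 5.91 in K-KD and 3.52 in K non-rep KO. The last of these overlapped the K-KD peak alone. The highest PTCH1 peak was one of K rep KO alone at 95466920 to 95467280 (fold enrichment 7.14, pileup 15). That peak and a region at 95463225 to 95463693, seen in both knockouts, also overlap the non-coding RNA gene LOC100507346.

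HHIP (chromosome 4, 144646156 to 144745271), which binds Hedgehog ligands at the cell surface, had 1 peak in EV, 1 in K-KD, 1 in K rep KO, 2 in K non-rep KO, against 2 in WT. It was the only one of the 7 genes with more peaks in WT than in EV, as had 4.14% of all protein-coding genes with a peak in either list. The peaks of EV and K rep KO lay before the gene, over the antisense gene HHIP-AS1, at 144644961 to 144645591. A K-KD peak and a WT peak overlapped at 144668075 to 144669100, with a fold enrichment of 5.56 and 3.73.

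Among the member peaks, those in all 5 lists had the highest medians. Single peaks did not all follow. A SUFU peak of K-KD in a region of all 5 lists had a fold enrichment of 3.91, and a PTCH1 peak of K rep KO alone had 7.14. The 20 member peaks in regions found in all 5 lists had a median fold enrichment of 6.60, a median width of 1757 bp and a median pileup of 20.5. The 44 member peaks found in 1 list had medians of 4.17, 411 bp and 9. Between these ends the median fold enrichment of member peaks was 4.21 in 2 lists, 4.02 in 3 and 4.45 in 4, with no steady rise. Over all peaks the medians were 5.09, 1166 bp and 20 for regions in all 5 lists, and 3.99, 398 bp and 10 for regions in 1 list. The fold enrichment over all peaks rose at each step between, with 4.14, 4.27 and 4.39 in 2, 3 and 4 lists. The members' 5-list regions came from SUFU and SMO, and GLI2 gave 21 of the 44 peaks found in 1 list. At a −log10 q of 5 or more, a stricter threshold than the authors', 40 of the 116 member peaks remained, and 32.2% to 44.8% of all peaks of a list. SUFU kept 15 of 29 peaks (51.7%), SMO 6 of 10 (60.0%) and GLI2 13 of 43 (30.2%). PTCH1 kept 4 of 14, GLI3 1 of 11, HHIP 1 of 7 and GLI1 0 of 2.

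**Figure D4:**
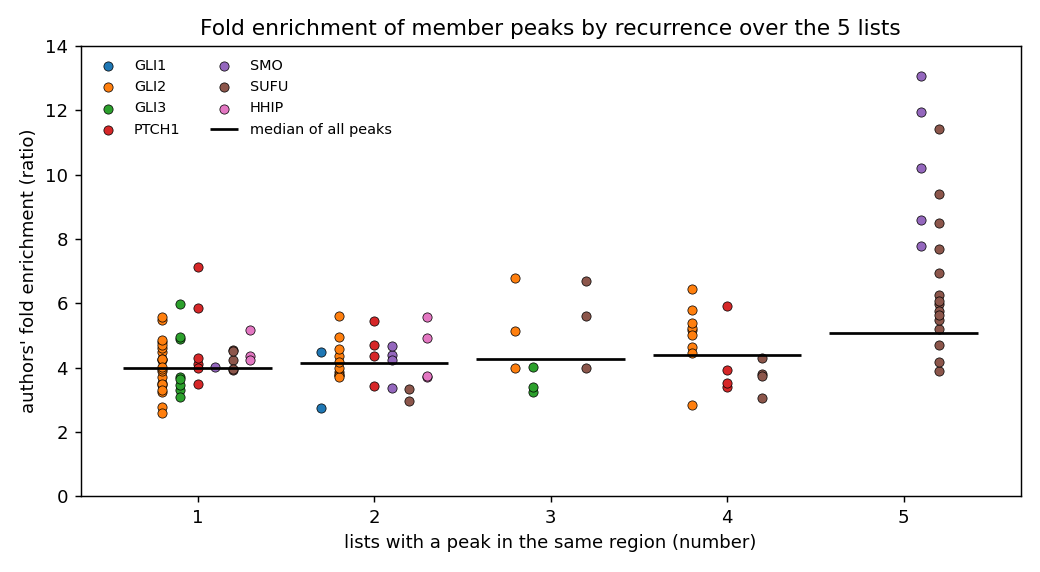
The authors' fold enrichment of each member peak (vertical axis) against the number of lists with a peak in the same region (horizontal axis), coloured by gene, with black lines at the medians over all peaks. SMO and SUFU peaks in the column of 5 lists reach 13.1 and 11.4, while GLI2 peaks lie between 2.59 and 6.79.

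Of the 116 member peaks, 112 touched a gene body and 4 lay in the 2 kb beyond it, 3 at HHIP and 1 at PTCH1. These lay 283 to 855 bp from the gene, with pileups of 8 to 13. Just outside the limit, SUFU had peaks 2627 bp (K-KD), 2661 bp (EV) and 2951 bp (K non-rep KO) past its upper end, and SMO had peaks 2486 bp (EV), 2605 bp (K non-rep KO) and 2777 bp (K-KD) past its own. A K-KD peak lay 2601 bp past GLI2.

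The conditions were compared pair by pair, first K-KD with EV. EV was taken as the control of the knockdown and had the longer list, so a gene near the ratio of the lists also has fewer peaks in K-KD. None of the 7 genes had more peaks in K-KD, 5 had fewer, and GLI1 and HHIP had 1 in each list. Of all protein-coding genes with a peak in either list, 14.4% had more and 67.0% had fewer. Together the 7 genes had 23 peaks against 31, a ratio of 0.742 (exact 95% interval 0.413 to 1.31, counting error only). All protein-coding genes had a ratio of 0.587. A relative ratio is a ratio divided by that over all protein-coding genes, with 0.5 added to both numbers for its value, not its interval. For the 7 genes the relative ratio was 1.27 (0.704 to 2.24). It was 2.01 (0.727 to 5.27) for peaks with a −log10 q of 5 or more and 1.90 (0.823 to 4.97) with lists cut to the same length. With a fold enrichment of 4 or more it was 2.18 (1.05 to 4.68). That interval lies above 1, but the genes were chosen by these lists and several settings were tried, so it is no test. A gene with at least 5 peaks in both lists together was called when its numbers plus 1 differed at least 2-fold. By that rule 1 of 5 eligible genes, PTCH1 with 2 against 5, was called lower in K-KD, where 31.3% of all eligible genes were. None was called higher, against 0.774% of all.

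The knockouts were set against WT, a list they share as control. In K rep KO the 7 genes had 27 peaks against 10 in WT, a relative ratio of 1.09 (0.528 to 2.61). With GLI2 left out there were 14 against 10, and the relative ratio was 0.576 (0.241 to 1.47). A lower ratio was bound to follow from leaving out a gene chosen by this difference. GLI2 was called higher and SUFU, with 7 against 5, was not, while 48.5% of all eligible genes were called higher. In K non-rep KO the 7 genes had 25 peaks, a relative ratio of 1.12 (0.534 to 2.68), and without GLI2 they had 16 and 0.723 (0.314 to 1.82). GLI2 was again called and SUFU, with 6 against 5, was not, beside 44.0% of all eligible genes. No member was called lower in either knockout, where 0.697% and 0.773% of all were. GLI2 was chosen by this difference, so its calls are no finding.

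The knockouts were also compared with each other. The 7 genes had 27 and 25 peaks, a relative ratio of 0.977 (0.547 to 1.76), and none of 3 eligible genes was called, beside 10.1% of all called higher and 5.44% lower. GLI2 had 13 and 9, SUFU 7 and 6 and PTCH1 3 in both. The interval leaves room for ratios from 0.547 to 1.76, so likeness is not shown.

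The same numbers were read for EV against WT, the unperturbed pair. The 7 genes had 31 and 10 peaks, a relative ratio of 0.785 (0.387 to 1.85), and 20 and 10 without GLI2, with 0.511 (0.234 to 1.25). GLI2, GLI3 with 4 against 1 and PTCH1 with 5 against 1 were called higher in EV, 3 of 4 eligible genes, as were 73.5% of all eligible genes. None was called lower, beside 0.101% of all. SUFU, the remaining one, had 6 against 5, a relative ratio of 0.309 (0.0798 to 1.30).

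**Figure D5:**
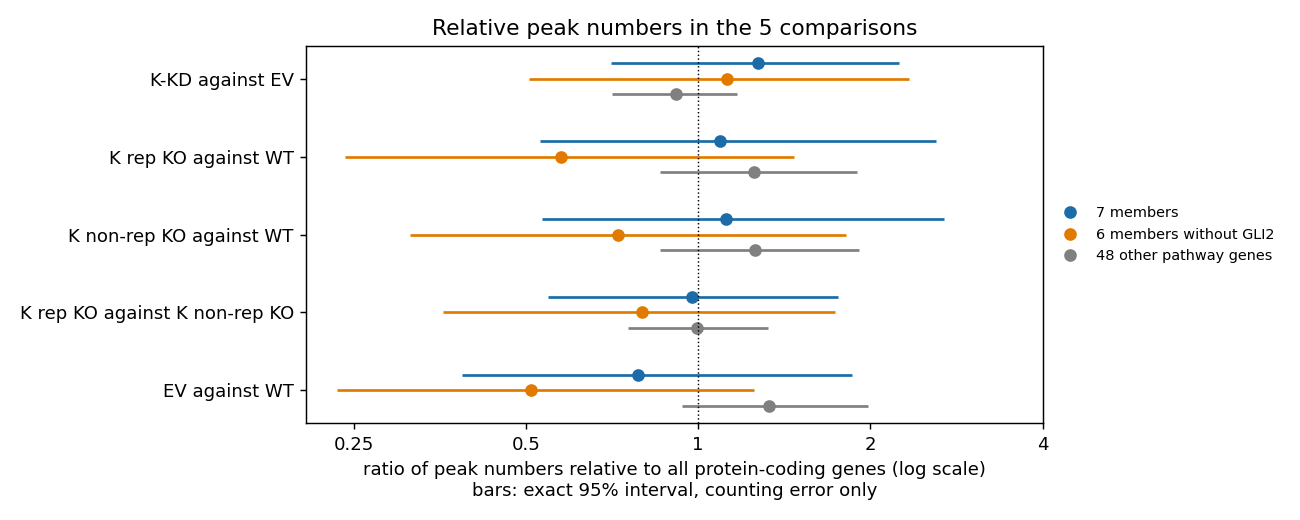
Ratio of peak numbers between 2 lists divided by the same ratio over all protein-coding genes (horizontal log axis) for the 5 comparisons, for the 7 genes, the 6 without GLI2 and 48 other pathway genes, with exact 95% intervals of counting error. Every interval drawn, for peaks as deposited, includes 1. GLI2 was chosen by its difference between K rep KO and WT, so lower ratios to WT without it carry no information.

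Other genes of the pathway were counted in 5 lists by role, 48 genes in all. Together they had 185 peaks in EV, 99 in K-KD, 109 in K rep KO, 99 in K non-rep KO, against 36 in WT. Their relative ratios were 0.914 (0.707 to 1.17) in K-KD against EV, 1.25 (0.859 to 1.90) in K rep KO against WT, 1.25 (0.856 to 1.91) in K non-rep KO against WT, 0.997 (0.753 to 1.32) between the knockouts and 1.33 (0.936 to 1.98) in EV against WT. In K-KD against EV 12 of 26 eligible genes were called lower and 0 higher, beside 31.3% and 0.774% of all. In EV against WT 18 of 21 were called higher in EV, beside 73.5%. Against WT, 6 of 10 were called higher in K rep KO, beside 48.5%, and 4 of 10 in the other knockout, beside 44.0%.

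The 7 genes for the ligands and their release had 18 peaks in EV and 0 in WT. Their relative ratio was 9.68, with an interval from 1.15 upward that has no upper limit. That interval lies above 1, but the gene lists were chosen with earlier results known, so it is no test. SHH, the ligand that names the pathway in vertebrates, carried 5 peaks in EV, 4 in K-KD, 2 in K rep KO, 3 in K non-rep KO, against 0 in WT. IHH, the ligand of cartilage growth, held 3, 2, 1, 1 and 0 in that order, and DHH, the ligand of testis and nerve sheath, 2, 2, 0, 1 and 0. DISP1, which releases ligand from the cell, held 4, 1, 2, 0 and 0. Every gene of this role had more peaks in EV than in WT, as had 86.6% of all protein-coding genes with a peak in either list.

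Receptors and co-receptors had 22 peaks in EV and 7 in WT, a relative ratio of 0.785 (0.339 to 2.28). GPC3, a cell-surface glypican that competes for ligand, carried 5 peaks in EV, 4 in K-KD, 4 in K rep KO, 5 in K non-rep KO, against 4 in WT, a flat row like that of SUFU. LRP2, a large endocytic receptor, held 5, 3, 4, 4 and 3. BOC, a co-receptor, held 5, 2, 3, 4 and 0.

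Among the genes of the cilium and SMO trafficking, TULP3, an adaptor that carries receptors into the cilium, carried 7 peaks in EV, 2 in K-KD, 5 in K rep KO, 7 in K non-rep KO, against 2 in WT. EVC, a partner of SMO at the base of the cilium, held 8, 2, 3, 4 and 0, some of which may also count for its neighbour EVC2. IFT172, of ciliary transport, held 5, 1, 1, 2 and 2, and ARRB1, an arrestin, 5, 2, 2, 2 and 0. Of these 10 genes 8 had fewer peaks under the knockdown than in its control and 0 had more, beside 67.0% and 14.4% of all protein-coding genes with a peak in either list.

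Kinases and ubiquitin ligase parts that act on GLI proteins had 70 peaks in EV and 17 in WT. Their relative ratio was 1.05 (0.627 to 1.95). BTRC, the ligase subunit that recognises phosphorylated GLI, carried 14 peaks in EV, 6 in K-KD, 5 in K rep KO, 5 in K non-rep KO, against 5 in WT. SPOP, the adaptor for GLI breakdown with CUL3, held 11, 6, 7, 6 and 3. KIF7, the ciliary kinesin that scaffolds GLI, held 9, 3, 7, 8 and 2. CUL1, the scaffold of the BTRC ligase, held 12, 3, 4, 3 and 0.

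Of the target genes, JAG2, a Notch ligand, carried 9 peaks in EV, 8 in K-KD, 9 in K rep KO, 5 in K non-rep KO, against 2 in WT. CCND1, the cyclin of G1 phase, held 5, 5, 0, 3 and 1, and CCND2, another cyclin of that phase, 5, 2, 3, 3 and 1. NKX2-2, a neural patterning factor, held 5, 1, 3, 3 and 1. CCND1 lies on chromosome 11, where K rep KO had 1321 of its 59098 peaks, K non-rep KO 2146 of 53396 and WT 1291 of 30732. Any bearing of these numbers on CCND1 was not tested.

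The genes whose peaks were spread over the 5 lists most like those of GLI2 were sought among 2365 protein-coding genes with at least 20 peaks. The measure was the sum of absolute differences between shares of a gene's own peaks by list. POLR1A, the largest subunit of RNA polymerase I, and PTPN23 both carried 6 peaks in EV, 5 in K-KD, 6 in K rep KO, 4 in K non-rep KO, against 0 in WT, with a sum of 0.0709. SNED1 held 12, 11, 15, 9 and 2 (0.0892), TPPP 10, 8, 9, 8 and 0 (0.0983) and TECPR1 11, 9, 11, 6 and 0 (0.104).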

How the data were processed

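MeDIP-seq libraries were aligned and peaks called with Bowtie2, MACS2 and deepTools on GRCh38, per the submitters' processing notes. Their versions and settings, and whether inputs served as the caller's control, were not given in the sources used here. For each condition 1 narrowPeak list was deposited by the authors, with a fold enrichment (ratio), −log10 p and −log10 q at each summit and a score that is 10 times the −log10 q. One further list (1 file) matched no sample label and was not used, and peak names inside the knockout lists carry other prefixes than the lists' names, on which their assignment rests. Only peaks on autosomes and X entered. Gene positions came from RefSeq (GRCh38.p14, 19974 protein-coding genes). Exons, introns and the bases under the peaks were not analysed here. Overlap of at least 1 bp counted. Depth is not in the lists. Summit pileups were solved from the authors' fold enrichment, taken as (pileup + 1)/(background + 1), and the Poisson p-value, with a tolerance of 0.001, which gave a whole number for 99.9% to 100.0% of peaks. Counting and solving were tested on simulated data. Intervals of ratios are exact (Clopper-Pearson, 95%), cover counting error only and treat neighbouring peaks as independent. With 1 list per condition no test was made. Which control belongs to which perturbation follows the order of the design text. The members, gene lists and rules were chosen with earlier results of these data known. All 7 genes are named, and of each other list up to 4 genes with the most peaks over the 5 lists, of which some are not reported here. Python 3.11.15, numpy 2.4.6, pandas 2.3.3 and scipy 1.17.1 were used.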

Additional observations from a re-analysis of the deposited data

How the results depend on the processing

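No paired analysis was possible because each condition has 1 list. The relative ratios of the 7 genes and of the 48 other pathway genes stayed within the intervals printed for the deposited peaks under a −log10 q of 5 or more, a fold enrichment of 4 or more, lists cut to the same length, the gene body alone, 10 kb of flank and counting by summit. For the 7 genes in K-KD against EV they ran from 1.19 with 10 kb of flank to 2.18 with a fold enrichment of 4 or more. Their own intervals lay above 1 in 2 cases, the 7 genes in K-KD against EV with a fold enrichment of 4 or more (1.05 to 4.68) and the 48 genes in EV against WT with 10 kb of flank (1.42, 1.04 to 2.01). Neither is a test, since the genes were chosen with earlier results known and several settings were tried. Leaving out GLI2 and the alternatives for the 48 genes were chosen after seeing the data. Genes called at least 2-fold different fell from 1946 to 1093 at −log10 q of 5 or more and 420 with lists of the same length in K-KD against EV, and from 723 to 255 and 361 between the knockouts. In K rep KO against WT they fell from 1694 to 378, to 1059 with fold enrichment of 4 or more and to 449 with lists of the same length. In K non-rep KO against WT they fell from 1448 to 190, 811 and 485, and in EV against WT from 3655 to 1278, 2076 and 550, at the same settings in order. Of the 68 member regions 44 (64.7%) were found in 1 list and 4 (5.88%) in all 5. Without GLI2 the shares were 59.0% and 10.3%, and over the whole series 56.5% and 7.97%. At −log10 q of 5 or more, 12 member regions were found in 1 list and 2 in all 5. Fewer peaks are counted under each of these settings. With lists of the same length GLI2 had 4 peaks in EV, 5 in K-KD, 5 in K rep KO, 4 in K non-rep KO, against 0 in WT. With pileups of 6 to 21 fragments at GLI2, a peak that falls just short of the threshold in one list cannot be told apart from one that is absent.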

Other observations

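GLIS and ZIC genes encode factors with zinc fingers related to those of the GLI proteins. These 8 genes had 32 peaks in EV, 12 in K-KD, 20 in K rep KO, 14 in K non-rep KO, against 9 in WT. GLIS1 held 11, 6, 9, 6 and 2 in that order, and GLIS3 held 7, 1, 4, 3 and 6, with WT next to EV. ZIC4 held 6, 3, 5, 2 and 0. ZIC2 and ZIC5, neighbours on chromosome 13, held no peak in any list. The relative ratio of the 8 genes in K-KD against EV was 0.655 (0.300 to 1.27), and in EV against WT 0.895 (0.434 to 2.21).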
